A study of Mus musculus with 24 samples.

Results

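Axin2, Notum, Rnf43, Sp5, Cdx1, Cdx2, Lef1 and Tcf7 are genes whose transcription WNT signalling is known to raise or that act in feedback on it. These 8 members were chosen as named genes of the pathway, with earlier results of these data known, and each was followed through every array by the probe sets that the array annotation lists for that symbol alone. Probe sets were found for 7 of the 8 members, 10 probe sets in all, among 18194 genes on the array, while Tcf7 had no probe set listed for it alone and was not analysed here. The cells were cultured mouse pluripotent cells, germ cell-like cells made from them, and their counterparts from the embryo, measured in 12 groups of 2 arrays and all labelled with the strain C57BL/6. Embryonic stem cells (ESCs) were kept without feeder cells in 2i+LIF. Epiblast-like cells (EpiLCs) were made from these ESCs and taken on days 1, 2 and 3 of induction, and primordial germ cell-like cells (PGCLCs) were made from EpiLCs of day 2. Epiblast stem cells (EpiSCs) are lines derived from the epiblast of embryonic day 5.75. Unamplified arrays covered ESCs, EpiLCs of each day, EpiSCs and PGCLCs. Amplified arrays, for which 5 ng of RNA corresponding to 500 cells went through 22 cycles of PCR, covered ESCs, EpiLCs of day 2, EpiSCs, the epiblast itself, PGCLCs and primordial germ cells (PGCs) of embryonic day 9.5. The series' design text places the epiblast before gastrulation, at embryonic day 5.5 to 6, and mentions fluorescent reporter transgenes without naming them. The labels do not say how many embryos or litters were pooled, how many lines were used, or how cells were sorted. Because each array reads RNA of a whole population, fewer cells expressing a gene and less RNA per cell cannot be told apart.

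In the canonical WNT pathway, a destruction complex of AXIN, APC and the kinases GSK3 and CK1 marks beta-catenin for degradation, and WNT ligands bound to Frizzled and LRP receptors halt that complex. Beta-catenin then enters the nucleus and joins HMG-box factors of the TCF/LEF family on the promoters and enhancers of target genes. Several targets encode inhibitors of the same pathway. AXIN2 is a scaffold of the destruction complex, NOTUM is a secreted enzyme that removes the lipid WNT needs to bind its receptor, and RNF43 is a membrane ubiquitin ligase that takes Frizzled off the cell surface. SP5 is a zinc finger repressor, CDX1 and CDX2 are homeobox factors of the posterior body with CDX2 also acting in trophoblast, and LEF1 and TCF7 are themselves nuclear partners of beta-catenin. The 2i medium contains a GSK3 inhibitor, and WNT signals from the extraembryonic tissues and the posterior epiblast take part in germ cell specification in the embryo.

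The promoter windows of 3 members are shown because their genes gave the largest differences below (Sp5 and Cdx2) or are the usual reporter of the pathway (Axin2). The sequences are RefSeq's, for build GRCm38.p6, and cover the 250 bases just upstream of the first listed start, 5′ to 3′ on the gene's strand. The genomic position of the Sp5 window is chr2:70474673-70474922 on the plus strand. The Axin2 window is chr11:108920099-108920348, also on the plus strand, and the Cdx2 window is chr5:147307250-147307499 on the minus strand. The Axin2 window lies inside the annotated gene, chr11:108917828-108950783, and so not upstream of the gene's first base. Capitals mark a match to a core TCF/LEF motif.
Sp5: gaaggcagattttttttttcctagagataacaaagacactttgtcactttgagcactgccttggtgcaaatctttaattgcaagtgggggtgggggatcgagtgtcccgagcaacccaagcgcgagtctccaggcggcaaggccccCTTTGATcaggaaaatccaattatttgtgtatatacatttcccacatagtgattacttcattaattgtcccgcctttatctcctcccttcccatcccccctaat
Axin2: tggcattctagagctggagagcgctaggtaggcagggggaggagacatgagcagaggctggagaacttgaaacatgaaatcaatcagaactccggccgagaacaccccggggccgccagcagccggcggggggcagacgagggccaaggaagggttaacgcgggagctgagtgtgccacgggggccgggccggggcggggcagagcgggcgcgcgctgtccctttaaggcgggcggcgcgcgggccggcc
Cdx2: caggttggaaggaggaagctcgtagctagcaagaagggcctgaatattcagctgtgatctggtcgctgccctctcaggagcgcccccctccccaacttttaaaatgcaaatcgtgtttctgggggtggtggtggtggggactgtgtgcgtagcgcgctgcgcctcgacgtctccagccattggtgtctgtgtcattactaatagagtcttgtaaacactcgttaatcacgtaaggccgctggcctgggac
The motifs searched were CTTTGAA and CTTTGAT on either strand. A match was found only in the Sp5 window, where CTTTGAT lay 104 to 98 bases upstream of the start. RefSeq windows were given for 6 of the 8 members, 11 windows in all, and the other 10 windows held neither motif. CTTTGAA was found in 4.46% and CTTTGAT in 3.21% of 32817 promoter windows of the same length, and 7.48% held either. A match is a description of the letters and not a binding site, and a window without one says nothing about binding elsewhere.

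Marker genes were read to check the cell names on the labels. Klf4, a factor of naive pluripotency, read 4838 and 4900 on the unamplified ESC arrays, and Fgf5, a growth factor of the epiblast after implantation, read 857 and 900 in EpiLCs of day 2 against 1 on both ESC arrays. Prdm14, a regulator of germ cell fate, read 1591 and 1768 in unamplified PGCLCs. The epiblast arrays also held markers of visceral endoderm, with 7 of 8 above the filter level (defined below) on both arrays and a summed intensity of 681 and 2581. Replicate arrays correlated at 0.975 to 0.991 when unamplified and at 0.957 to 0.972 when amplified, except for amplified EpiSCs at 0.911. Intensities are linear, with a lowest value of 1, and the level of one probe set cannot be set against that of another. The 40th percentile of each set of arrays, 28.1 for unamplified and 24 for amplified arrays, is called the filter level, and an intensity below it is treated as only a bound.

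**Figure D1:**
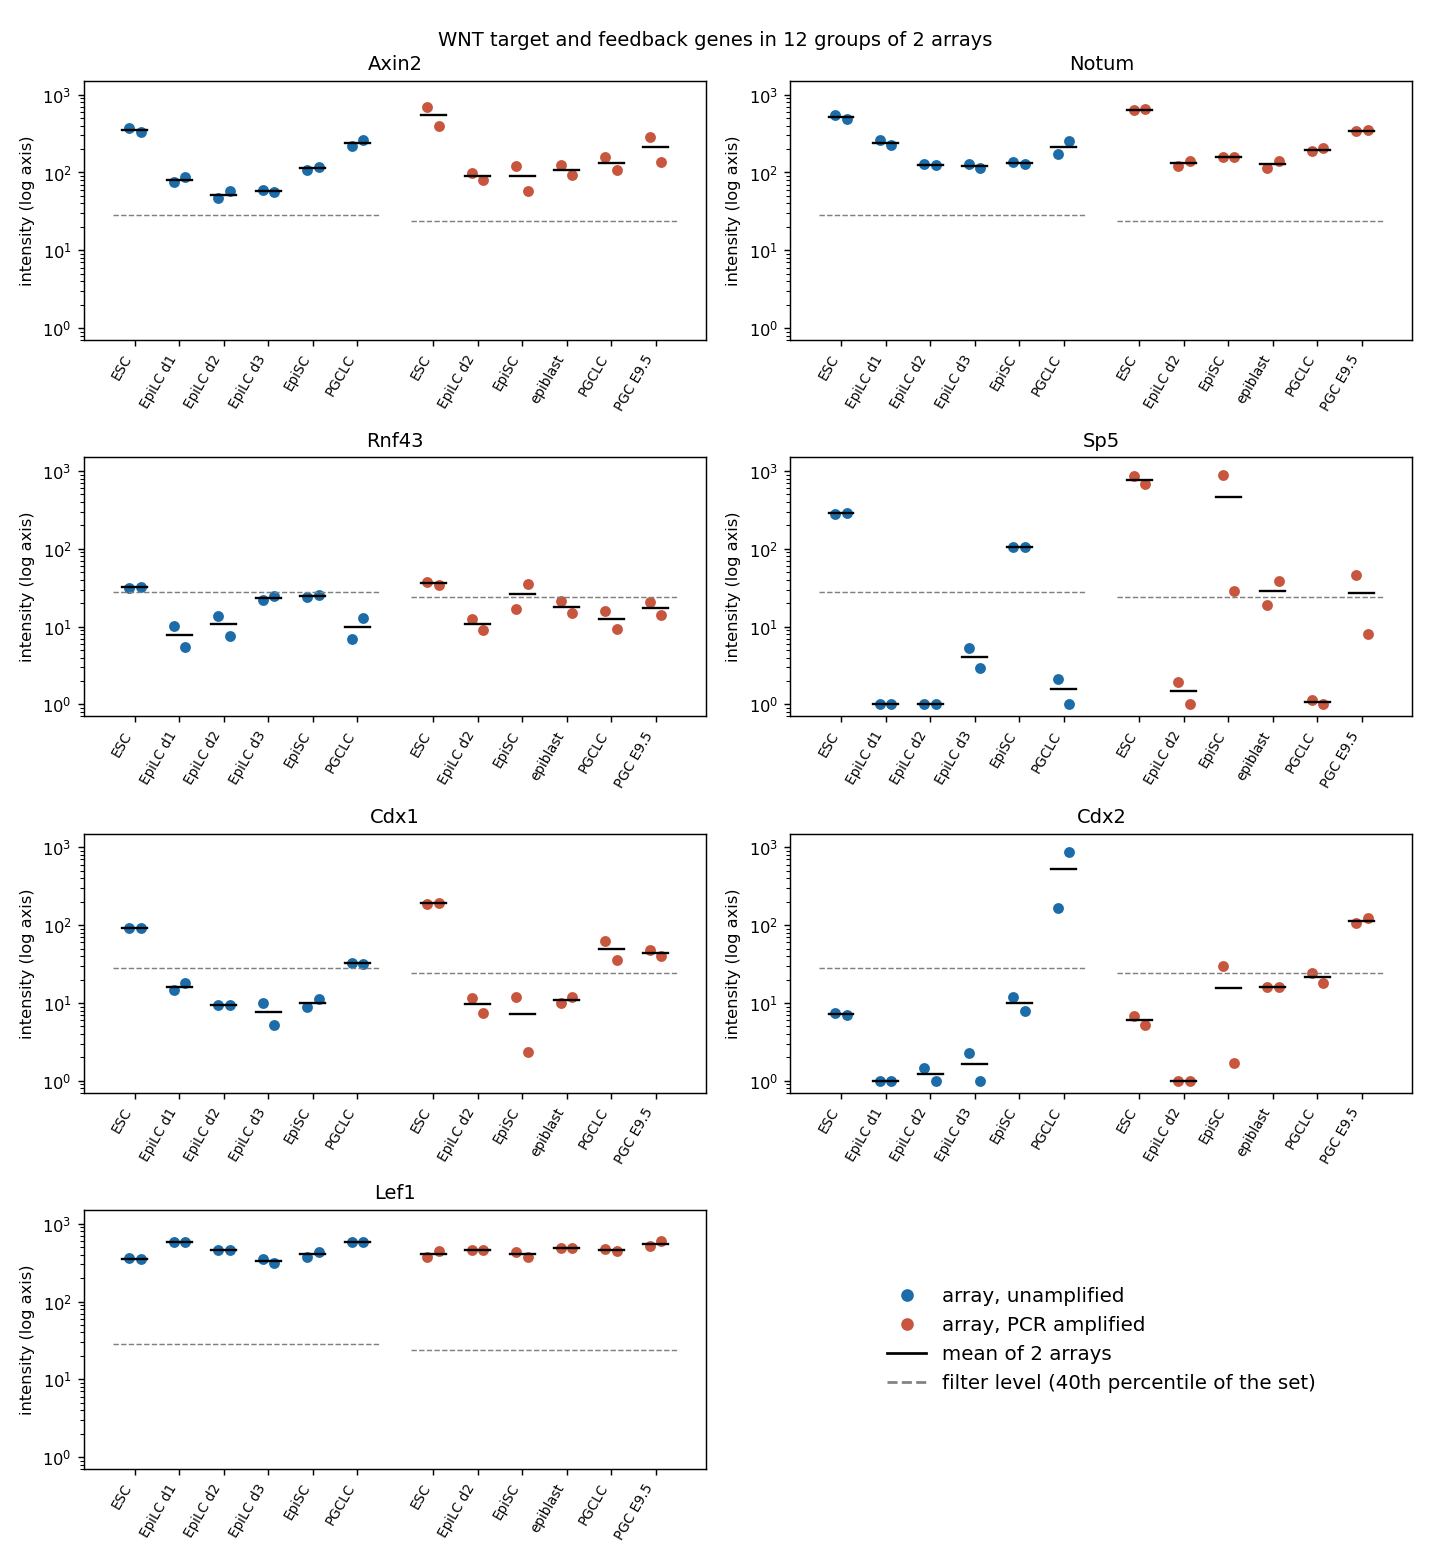
Intensity (log axis) of the 7 measured members on each of the 24 arrays, by group, with unamplified arrays in blue, amplified arrays in red, the mean of 2 arrays as a line and the filter level dashed. ESCs hold the highest readings of Axin2, Notum and Cdx1 on both sets of arrays, Cdx2 is highest in unamplified PGCLCs at 168 and 873, and Lef1 stays above 309 on every array.

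Axin2 was highest in ESCs. On unamplified arrays it read 370 and 331 in ESCs, 75.7 and 86.6 on EpiLC day 1, 46.5 and 57.0 on day 2, 59.5 and 56.9 on day 3, 107 and 119 in EpiSCs, and 217 and 260 in PGCLCs. The order was ESCs, PGCLCs, EpiSCs and EpiLCs of day 1, each apart from the next beyond the spread between arrays, followed by days 3 and 2, which did not differ beyond it. On amplified arrays Axin2 read 701 and 393 in ESCs, 98.2 and 79.8 in EpiLCs of day 2, 123 and 58.2 in EpiSCs, 124 and 94.1 in the epiblast, 158 and 108 in PGCLCs, and 284 and 136 in PGCs. Only the step from ESCs to PGCs exceeded the spread there. The first replicate read higher than the second in each of the 6 amplified groups, and within either replicate number the order was PGCs, PGCLCs, epiblast and EpiLCs of day 2, so that spread includes a shift shared by same-numbered arrays. A second Axin2 probe set lay near or below the filter level in every group and did not follow the first.

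Notum, the secreted WNT deacylase, was also highest in ESCs. Its unamplified intensities were 541 and 489 in ESCs, 259 and 226 on EpiLC day 1, 128 and 125 on day 2, 129 and 113 on day 3, 137 and 128 in EpiSCs, and 173 and 252 in PGCLCs. ESCs stood above all other groups, EpiLCs of day 1 and PGCLCs did not differ beyond the spread, and EpiSCs and EpiLCs of days 2 and 3 formed a low group. The amplified intensities were 633 and 647 in ESCs, 122 and 140 in EpiLCs of day 2, 157 and 160 in EpiSCs, 116 and 140 in the epiblast, 186 and 208 in PGCLCs, and 340 and 347 in PGCs. These fell in the order ESCs, PGCs, PGCLCs and EpiSCs, each apart beyond the spread, with EpiLCs and the epiblast overlapping at the bottom.

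Rnf43, the ligase acting on Frizzled, lay near or below the filter level in every group. On unamplified arrays it exceeded that level in ESCs alone, at 31.2 and 32.6, and read 10.3 and 5.43 on EpiLC day 1, 13.9 and 7.48 on day 2, 22.3 and 24.6 on day 3, 24 and 25.2 in EpiSCs, and 6.96 and 12.9 in PGCLCs. ESCs, EpiSCs and EpiLCs of day 3 were neighbours within the spread, and the remaining 3 groups lay below them. With amplification the readings were 37.7 and 34.2 in ESCs, 12.5 and 9.05 in EpiLCs of day 2, 17.1 and 34.9 in EpiSCs, 21.3 and 14.9 in the epiblast, 15.7 and 9.24 in PGCLCs, and 20.5 and 14.1 in PGCs. No neighbouring groups in that order differed beyond the spread, and besides ESCs only 1 EpiSC array passed the filter level.

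Sp5, the zinc finger repressor, was read strongly in a few groups and near the lowest value in the others. Unamplified arrays gave 282 and 292 in ESCs, 105 and 106 in EpiSCs, 5.30 and 2.91 on EpiLC day 3, 2.13 and 1 in PGCLCs, and 1 on all arrays of EpiLC days 1 and 2. ESCs and EpiSCs were therefore clearly above the filter level and every other unamplified group lay below it. Amplified arrays gave 876 and 678 in ESCs, 1.93 and 1 in EpiLCs of day 2, 887 and 28.8 in EpiSCs, 18.9 and 38.0 in the epiblast, 1.15 and 1 in PGCLCs, and 46.3 and 7.96 in PGCs. The EpiSC arrays differed most between replicates, the first at the level of ESCs and the second close to the filter level.

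Cdx1, a posterior homeobox factor, read 92.2 and 93.2 in unamplified ESCs, 14.6 and 17.8 on EpiLC day 1, 9.34 and 9.39 on day 2, 9.85 and 5.25 on day 3, 8.80 and 11.2 in EpiSCs, and 33.0 and 31.8 in PGCLCs. Only ESCs and PGCLCs exceeded the filter level. In the amplified set it read 190 and 195 in ESCs, 11.6 and 7.52 in EpiLCs of day 2, 12 and 2.31 in EpiSCs, 9.98 and 11.8 in the epiblast, 63.0 and 35.5 in PGCLCs, and 48.6 and 40 in PGCs. ESCs stood highest, PGCLCs and PGCs overlapped below them, and the other 3 groups were all under the filter level.

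Cdx2, the homeobox factor of the posterior body and trophoblast, was highest in germ cell-like cells on unamplified arrays and in PGCs on amplified ones. It was 168 and 873 in unamplified PGCLCs, with the replicates apart by several fold, and at most 11.8 on any other unamplified array. ESCs read 7.47 and 6.95, EpiSCs 11.8 and 7.88, and EpiLCs 1 to 2.28 over the 3 days. Amplified PGCs read 107 and 123, PGCLCs 24.5 and 18.2, the epiblast 16 and 16.1, EpiSCs 29.7 and 1.70, ESCs 6.76 and 5.27, and EpiLCs of day 2 read 1 on both arrays. PGCs were thus the only amplified group above the filter level on both arrays. The second Cdx2 probe set gave 71.7 and 341 in unamplified PGCLCs, and 13.2 and 30.2 in PGCs, and read at most 6.72 on all other arrays.

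Lef1, the HMG-box partner of beta-catenin, was well above the filter level everywhere and varied little. Its unamplified readings were 360 and 349 in ESCs, 586 on both arrays of EpiLC day 1, 456 and 465 on day 2, 353 and 309 on day 3, 379 and 436 in EpiSCs, and 575 and 591 in PGCLCs. EpiLCs of day 1 and PGCLCs were highest and within the spread of each other, and ESCs and EpiLCs of day 3 were lowest. The amplified readings were 373 and 447 in ESCs, 458 on both EpiLC arrays, 438 and 373 in EpiSCs, 487 and 488 in the epiblast, 471 and 448 in PGCLCs, and 511 and 592 in PGCs. A second Lef1 probe set was also lowest in ESCs and highest in PGCLCs and EpiLCs of day 1 on unamplified arrays, with a much wider range. It ran from 8.80 and 16.3 in ESCs, both below the filter level, to 82.9 and 99.0 on EpiLC day 1 and 108 and 127 in PGCLCs. On amplified arrays it read 32.9 and 22.2 in ESCs, 26.4 and 26.9 in EpiLCs of day 2, and 29.3 and 24.9 in EpiSCs. The epiblast read 40.3 and 48.6, PGCLCs 34.8 and 46.3, and PGCs 47.8 and 90.2.

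Differences between groups are given as log2 ± standard error from limma, with n = 2 arrays per group and p-values adjusted over all genes tested. Calls needed both an adjusted p under 0.05 and a change of at least 2-fold, which is 1 on the log2 scale. A fold is "at least" where the lower group's mean lay below the filter level and that level stood in for it. In such cases the log2 difference depends on the value of 4.2 to which low readings were raised, and only the fold is a measured bound. On unamplified arrays Axin2, Notum and Lef1 exceeded the filter level on all 12 arrays. Sp5 and Cdx1 did so on 4 arrays (ESCs with EpiSCs, and ESCs with PGCLCs), Rnf43 only on the 2 ESC arrays and Cdx2 only on the 2 PGCLC arrays. Rnf43 and Cdx2 were therefore tested there only through the group where they were high, and their calls against those groups, though counted below, add no support to a count of members.

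The first question was how the members change as ESCs leave 2i+LIF and become EpiLCs. By day 1 of induction 5 of the 7 members, Axin2, Notum, Rnf43, Sp5 and Cdx1, had fallen, against 6.38% of 14935 genes called lower. None had risen, against 5.65% called higher. Sp5 fell by 6.10 ± 0.27 (adjusted p = 4.1e-08), at least 10.2-fold. Among the feedback inhibitors, Axin2 fell by 2.11 ± 0.15 (adjusted p = 1.55e-06), 4.32-fold, and Notum fell by 1.09 ± 0.16 (adjusted p = 0.000315), 2.12-fold. Rnf43 fell by 2.09 ± 0.43 (adjusted p = 0.00237), of which the part above the filter level is a fold of at least 1.13, having passed the filter through its ESC arrays alone. Cdx1 fell by 2.52 ± 0.33 (adjusted p = 0.000108), at least 3.30-fold. Lef1 went the other way by 0.73 ± 0.09 (adjusted p = 6.39e-05), which missed the size threshold, while its second probe set, an alternative added after seeing the data, was called at 2.92 (adjusted p = 1.7e-05). Both ESC readings of that probe set lay below the filter level, where an intensity is only a bound. Cdx2, under the filter level in both groups, differed by -0.78 ± 0.60 (adjusted p = 0.352). The Axin2 value rests on 1 of its probe sets, since the second gave 0.22 (adjusted p = 0.786) and the mean of both, at -0.94, lost the call. Notum, at -0.99 without the second EpiLC day 1 array, fell short of the size threshold, and Rnf43 was not called when low values were raised to the 40th percentile.

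**Figure D2:**
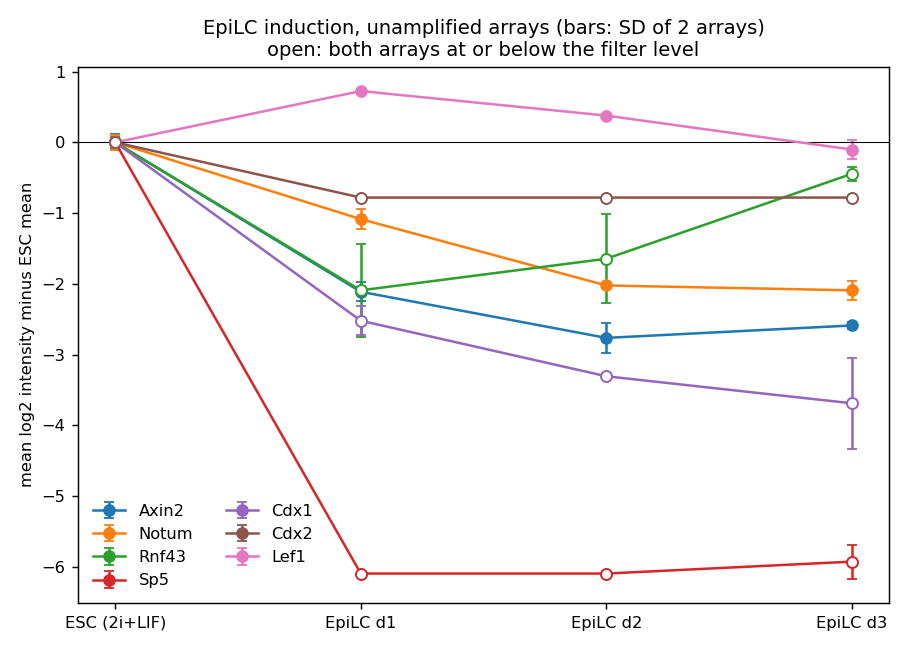
Mean log2 intensity minus the ESC mean for the 7 measured members through EpiLC induction on unamplified arrays, with bars for the SD of 2 arrays and open symbols where both arrays lay at or below the filter level. Sp5 stands at -6.10 on day 1, Axin2 and Notum at -2.76 and -2.02 on day 2, and Lef1 lies 0.73 above ESCs on day 1.

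On day 2 the same comparison with ESCs again called 5 members lower, against 7.5% of genes, and 0 higher, against 8.96%, and these were the 5 named for day 1. Both comparisons share the ESC arrays. Axin2 fell by 2.76 ± 0.15 (adjusted p = 1.23e-07), 6.79-fold, and Notum fell by 2.02 ± 0.16 (adjusted p = 2.07e-06), 4.07-fold. Sp5 fell by 6.10 ± 0.27 (adjusted p = 2.19e-08) and Cdx1 fell by 3.31 ± 0.33 (adjusted p = 9.66e-06), at least 10.2-fold and 3.30-fold. Rnf43 fell by 1.65 ± 0.43 (adjusted p = 0.00819), a call that was lost without the second EpiLC day 2 array, at -1.2 (adjusted p = 0.0822), with a pseudocount of 16, at -0.85, and with the higher floor, at -0.30. Lef1 differed by 0.38 ± 0.09 (adjusted p = 0.00422) and was not called, while its second probe set was, at 1.94 (adjusted p = 0.000248). Both ESC readings of that probe set lay below the filter level. On amplified arrays it read 32.9 and 22.2 in ESCs and 26.4 and 26.9 in EpiLCs. The second Axin2 probe set gave 0.40 (adjusted p = 0.579), the opposite sign to the first, with both group means below the filter level.

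Between EpiLC days no member passed both thresholds. From day 1 to day 2 limma called 0 of 7, against 8.04% of genes, and 4 had an unadjusted p under 0.05. Notum differed by -0.94 ± 0.16 (adjusted p = 0.00127) and Axin2 by -0.65 ± 0.15 (adjusted p = 0.00759), both under the size threshold, and the median over the members was -0.35 against 0.04 over all genes. Notum passed it when arrays were centred on their medians, at -1.01, after quantile normalization, at -1.02, and without the second EpiLC day 1 array, at -1.04. From day 2 to day 3 limma again called 0 of 7, against 4.26% of genes, with 2 at an unadjusted p under 0.05. Rnf43 differed by 1.2 ± 0.43 (adjusted p = 0.0622) with both groups below the filter level, and was called after quantile normalization (adjusted p = 0.0443), with the array-name code as a block (adjusted p = 0.0469) and without the first EpiLC day 2 array, at 1.65 (adjusted p = 0.0489). Lef1 differed by -0.48 ± 0.09 (adjusted p = 0.00228).

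On amplified arrays EpiLCs of day 2 were compared with ESCs a second time, and 5 members fell, against 4.24% of 15609 genes, and 0 rose, against 4.27%. Rnf43 passed the filter there through its 2 ESC arrays and 1 EpiSC array, and would not have passed it without ESCs. Its call, a fold of at least 1.49, therefore adds no support to this count. Cdx1 fell by 4.37 ± 0.49 (adjusted p = 0.000568), at least 8.01-fold, and Notum fell by 2.29 ± 0.21 (adjusted p = 0.000209), 4.91-fold. Both calls survived the removal of each of the 4 arrays in turn. Sp5 fell by 7.52 ± 1.31 (adjusted p = 0.00607), at least 32.1-fold, and lost its call without the first ESC array (adjusted p = 0.0514). Axin2 fell by 2.57 ± 0.47 (adjusted p = 0.00786), 5.93-fold, and lost its call without that array (adjusted p = 0.0797) or without the second EpiLC array (adjusted p = 0.0581). As the mean of both Axin2 probe sets the difference was -1.31 (adjusted p = 0.147), and the second probe set alone gave -0.047 (adjusted p = 0.983). Rnf43 fell by 1.76 ± 0.45 (adjusted p = 0.0397), and was not called without any one of the 4 arrays, with adjusted p-values of 0.099 to 0.196. Lef1, at 0.16 ± 0.22, and Cdx2, at -0.51, were not called. Of the members, 4 were called without the second ESC array or without the first EpiLC array, 2 without the first ESC array and 3 without the second EpiLC array.

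Other genes of the pathway were called in both directions, and the lists were not tested against the members. A list of 16 further WNT targets and feedback genes held 13 that were tested, and 1 of these rose and 1 fell from ESCs to EpiLC day 1 (5.65% and 6.38% of all genes), with a median of -0.02 against -0.03 over all genes. Myc, the growth-promoting transcription factor, rose by 3.17 ± 0.29, and Tnfrsf19, a membrane receptor of the TNF family, fell by 2.08 ± 0.24. Of 20 tested intracellular components, Tle4 rose by 1.18 and Tle3 fell by 1.01, both encoding Groucho co-repressors that bind TCF factors, and the median was -0.14. By day 2 Myc was 2.97 above and Tnfrsf19 2.16 below ESCs, with 1 higher and 1 lower of 13 (8.96% and 7.5% of all genes). Only Tle1, another Groucho gene, was called among the components, 1.88 higher. Amplified arrays gave 2.60 for Myc and 1.36 for the receptor gene Fzd7, both higher on day 2, and Tnfrsf19 fell by 2.17.

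EpiSCs, the cultured line from the epiblast, were set against EpiLCs of day 2 to compare 2 forms of primed cells. On unamplified arrays 3 members were higher in EpiSCs, against 12.4% of genes called higher, and none was lower, against 6.45%. Sp5 rose by 4.65 ± 0.27 (adjusted p = 1.65e-07), at least 3.75-fold. Axin2 rose by 1.13 ± 0.15 (adjusted p = 9.74e-05), 2.19-fold, close enough to the size threshold that it was lost with a pseudocount of 16, at 0.93, after quantile normalization, at 0.99, without the first EpiLC array, at 0.98, and as the mean of both probe sets, at 0.45. The second Axin2 probe set gave -0.23. Rnf43 rose by 1.27 ± 0.43 (adjusted p = 0.027) with both groups below the filter level, so that no fold is given, and it lost its call without the second EpiLC array (adjusted p = 0.201) and without either EpiSC array (adjusted p = 0.0816 and 0.0951), with a pseudocount of 16, at 0.62, and with the higher floor, at 0. Notum at 0.06 ± 0.16, Cdx1 at 0.08 and Lef1 at -0.18 ± 0.09 were not called. Cdx2 differed by 1.2 ± 0.60 (adjusted p = 0.121).

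The amplified EpiSC arrays, which share their EpiLC day 2 arrays with the comparisons above and below, called Sp5 alone of the 7 members, against 8.61% of genes called higher, and 0 lower, against 3.86%. Sp5 rose by 5.25 ± 1.31 (adjusted p = 0.027), at least 6.65-fold, with the EpiSC readings of 887 and 28.8 far apart. That call was lost without either EpiLC array (adjusted p = 0.113 and 0.116), when only these groups were fitted (adjusted p = 0.177), without the filter on low genes (adjusted p = 0.0532), with a pseudocount of 16 (adjusted p = 0.0538) and with the higher floor (adjusted p = 0.219). Axin2 differed by -0.07 on these arrays. Rnf43 was called without the first EpiSC array, at 1.72 (adjusted p = 0.0275), and Cdx2 without the second, at 2.82 (adjusted p = 0.00242).

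Markers of other cells also moved between these groups. Fibroblast genes, a list of collagens and other matrix and stromal genes, were higher in EpiSCs for 7 of 8 on unamplified arrays, with summed intensities of 9763 to 9909 against 684 to 715 in EpiLCs, and for 5 of 8 on amplified arrays, with 2831 to 3228 against 384 to 474. Hindgut genes were higher for 6 of 9 on unamplified arrays, including the forkhead factors Foxa1 and Foxa2. Their part in the Sp5, Axin2 and Rnf43 results was not tested. Among other WNT targets 4 of 13 rose on unamplified arrays and 1 fell, against 12.4% and 6.45% of all genes. Their median was 0.34 against 0.02 over all genes. Dkk1, a secreted inhibitor of the LRP co-receptor, rose by 4.06 ± 0.24, from 20.4 on both EpiLC arrays to 332 and 350 in EpiSCs, at least 12.1-fold, and on amplified arrays by 4.77. Sp8, a relative of Sp5, rose by 4.25, Tnfrsf19 by 2.69 and the cyclin gene Ccnd1 by 1.21, while Myc fell by 2.29.

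**Figure D3:**
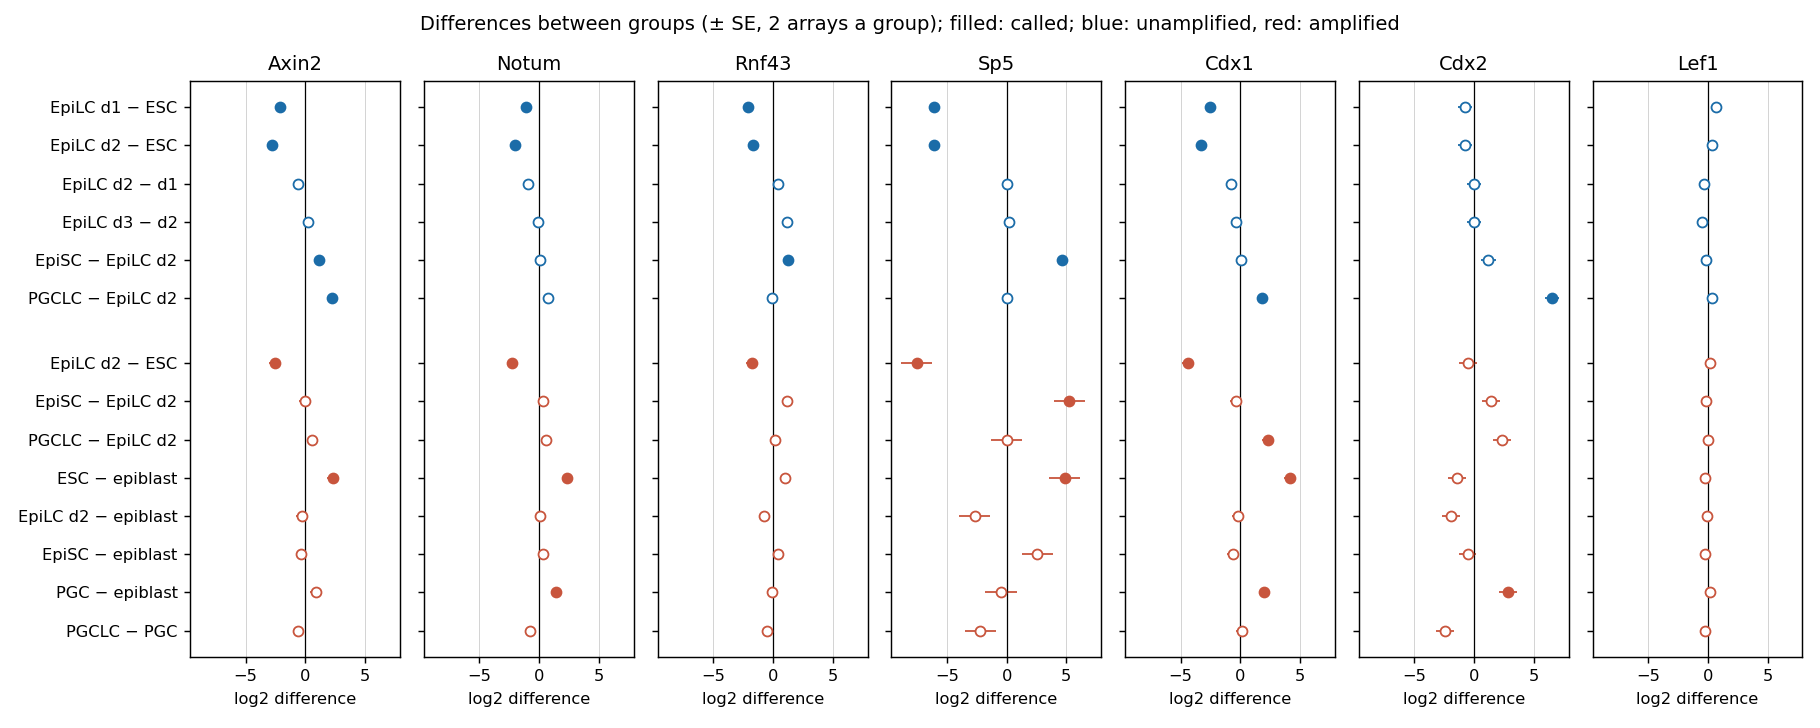
Log2 difference ± SE (2 arrays per group) of each measured member in 14 comparisons, unamplified in blue and amplified in red, with filled symbols where the difference was called. Axin2, Notum, Rnf43, Sp5 and Cdx1 are filled on the left for EpiLC day 2 minus ESC in both sets, Cdx2 reaches 6.51 for PGCLC minus EpiLC day 2 on unamplified arrays, and no Lef1 symbol is filled.

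Germ cell induction in culture was read as PGCLCs against the EpiLCs of day 2 they were made from. On unamplified arrays Cdx2, Axin2 and Cdx1 rose, 3 of 7 members against 8.77% of genes called higher, and none fell, against 11.9%. Cdx2 rose by 6.51 ± 0.60 (adjusted p = 4.71e-06), at least 13.6-fold, having passed the filter through its PGCLC arrays alone, and held its call with either array of either group left out and with its second probe set, at 5.22. Axin2 rose by 2.21 ± 0.15 (adjusted p = 5.62e-07), 4.61-fold, which left it below the ESC level. The second Axin2 probe set gave the opposite sign, at -1.49 (adjusted p = 0.0315), with both group means below the filter level, where readings are only bounds. As the mean of both probe sets, Axin2 differed by 0.36 and was not called. Cdx1 rose by 1.79 ± 0.33 (adjusted p = 0.000743), at least 1.15-fold, and lost its call with a pseudocount of 16, at 0.93, and with the higher floor, at 0.32. Notum, at 0.72 ± 0.16 (adjusted p = 0.00304), and Lef1, at 0.34 ± 0.09 (adjusted p = 0.00652), were under the size threshold. The second Lef1 probe set was called at 1.35 (adjusted p = 0.00249). Sp5 was at the floor in both groups, and Rnf43 differed by -0.11.

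With amplification 1 of 7 members rose between the same cell types, against 6.46% of genes, and 0 fell, against 6.24%. Cdx1 rose by 2.34 ± 0.49 (adjusted p = 0.0118), at least 1.97-fold, and lost its call without the second EpiLC array (adjusted p = 0.0823), without the first PGCLC array (adjusted p = 0.0959) and with the higher floor (adjusted p = 0.0508). Cdx2 differed by 2.33 ± 0.72 (adjusted p = 0.0611), with both group means below the filter level. With the replicate number as a block Cdx2 was called (adjusted p = 0.0341), as it was when only these groups were fitted (adjusted p = 0.0144) and with the EpiSC arrays left out (adjusted p = 0.00126), an alternative added after seeing the data. Axin2 differed by 0.56 ± 0.47 (adjusted p = 0.508) and Notum by 0.59 ± 0.21 (adjusted p = 0.103).

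**Figure D4:**
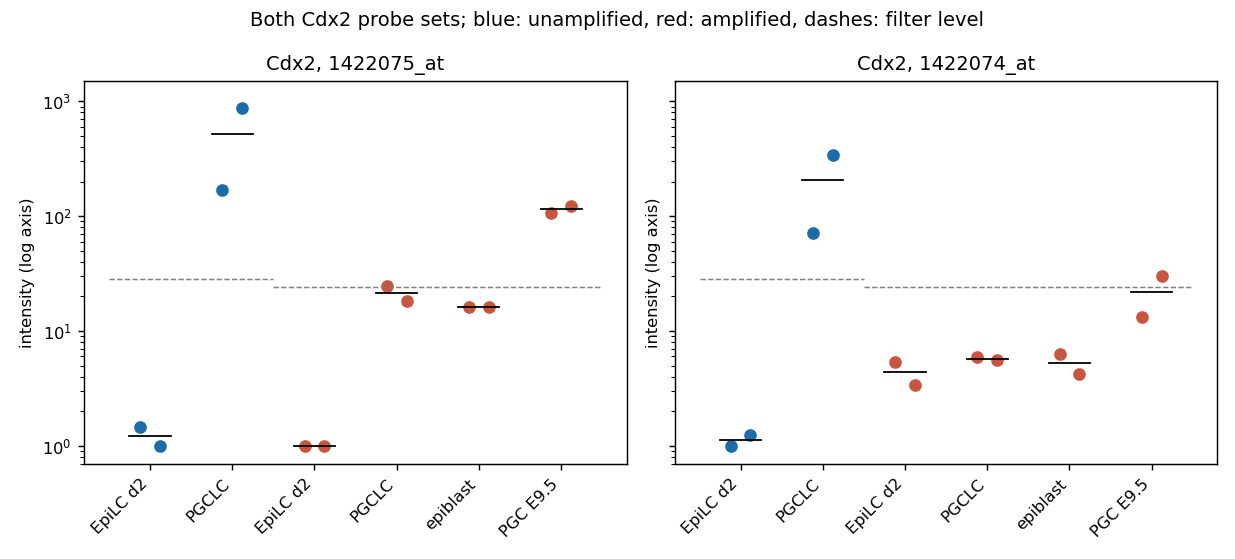
Intensity (log axis) of both Cdx2 probe sets on each array of EpiLC day 2, PGCLCs, the epiblast and PGCs, with unamplified arrays in blue, amplified arrays in red, group means as lines and the filter level dashed. The left probe set reads 168 and 873 in unamplified PGCLCs, 24.5 and 18.2 in amplified PGCLCs and 107 and 123 in amplified PGCs, and the right one 71.7 and 341, then 5.92 and 5.61, and 13.2 and 30.2 in the same groups.

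Because CDX2 also marks trophoblast, hindgut and posterior mesoderm, markers of these tissues were read beside it. In unamplified PGCLCs 5 of 8 trophoblast genes exceeded the filter level on both arrays, with a summed intensity of 691 to 792 against 619 to 634 in EpiLCs, where 4 did. Elf5 and Gata3, defining factors of trophoblast, were below that level in both groups, and 1 of 6 tested trophoblast genes, Plac1, was called higher. Of 7 tested streak and trunk mesoderm genes 2 were called, the homeobox gene Evx1, from 9.22 and 12.5 to 65.9 and 74.1, and the receptor gene Kdr, from 48.0 and 59.0 to 183 and 186. No hindgut gene was called higher, 2 of 9 were lower, and Foxa1 and Foxa2 lay below the filter level. Fibroblast genes were higher for 4 of 8 and lower for 2, and endothelial genes were higher for 2 of 5. Over all genes tested, 8.77% were called higher and 11.9% lower on these arrays, and 6.46% and 6.24% on amplified arrays. On amplified arrays endothelial genes were higher in PGCLCs for 4 of 6 (Emcn, Pecam1, Tek and Tie1), with sums of 1032 to 1595 against 91.1 to 149 in EpiLCs, while trophoblast genes were higher for 1 of 6, again Plac1. The part of such cells in the Cdx2, Cdx1 and Axin2 results was not tested.

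Elsewhere in the pathway PGCLCs and EpiLCs differed in both directions. Of 13 other targets 2 rose and 2 fell on each set of arrays. Over all genes 8.77% rose and 11.9% fell on unamplified arrays, and 6.46% and 6.24% on amplified arrays. Dkk1 rose by 3.69, from 20.4 on both EpiLC arrays to 202 and 341, at least 9.35-fold, and Tnfrsf19 by 1.39, whereas Ccnd1 fell by 3.49 and Myc fell by 2.85. Among the intracellular components only Tcf7l1, a TCF factor that mainly represses targets, was called. Its intensity fell by 2.96 ± 0.16, from 1126 and 1133 to 118 and 179, and on amplified arrays by 2.82 ± 0.67.

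Whether the cultured cells match the embryo in these genes was asked on amplified arrays, with the epiblast as the shared reference. ESCs exceeded the epiblast in 4 of 7 members, against 6.64% of genes called higher, and 0 lay below it, against 5.18%. Cdx1 was higher in ESCs by 4.15 ± 0.49 (adjusted p = 0.000556), at least 8.01-fold, and Notum by 2.33 ± 0.21 (adjusted p = 0.000126), 5.03-fold. Axin2 was higher by 2.28 ± 0.47 (adjusted p = 0.0103), 4.87-fold, and Sp5 by 4.84 ± 1.31 (adjusted p = 0.0382), 28.7-fold, with 1 of the 2 epiblast arrays below the filter level. Axin2 lost its call without the first ESC array (adjusted p = 0.101), without the second epiblast array (adjusted p = 0.0828) and as the mean of both probe sets (adjusted p = 0.193). Sp5 lost it without any one of the 4 arrays, with adjusted p-values of 0.107 to 0.199, and without the filter on low genes (adjusted p = 0.0759). Rnf43, at 1.01 ± 0.45 (adjusted p = 0.207), Cdx2, at -1.43 ± 0.72 (adjusted p = 0.273), and Lef1, at -0.26, were not called. Cdx2 was called when only these groups were fitted (adjusted p = 0.0229) and with the EpiSC arrays left out (adjusted p = 0.0126). All its readings in both groups lay below the filter level. Visceral endoderm genes were lower in ESCs for 4 of 8, with sums of 185 to 216 against 681 to 2581 in the epiblast, and their part in these differences was not tested. Of the 13 other WNT targets 0 were higher in ESCs and 3 were lower, Myc at -3.01, the receptor gene Fzd7 at -2.08 and Sp8 at -2.01, with a median of -0.34 against 0.01 over all genes.

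EpiLCs of day 2 and the epiblast were not told apart by any member. Limma called 0 of 7, against 0.961% of genes, and 1, Cdx2, had an unadjusted p under 0.05. The 95% interval of the log2 difference, EpiLC minus epiblast, was narrowest for Notum, at -0.44 to 0.51 around 0.04, and Lef1, at -0.57 to 0.39 around -0.09. It was -1.34 to 0.77 for Axin2, -1.32 to 0.88 for Cdx1 and -1.76 to 0.26 for Rnf43. Sp5 differed by -2.68 ± 1.31 (adjusted p = 0.549) with an interval of -5.61 to 0.26, and Cdx2 by -1.94 ± 0.72 (adjusted p = 0.36) with one of -3.55 to -0.32. These intervals allow differences past a fold of 2 for Axin2, Sp5, Cdx1, Cdx2 and Rnf43, so the values do not show that the cells are alike in them. With the EpiSC arrays left out, Cdx2 was called (adjusted p = 0.0212), though all its readings in both groups lay below the filter level.

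EpiSCs were also set against the epiblast from which such lines derive. Of the 7 members limma called 0, against 11.7% of genes, and none had an unadjusted p under 0.05. The spread between the EpiSC arrays decided several values. Sp5, at 2.57 ± 1.31 (adjusted p = 0.257), was called without the second EpiSC array, at 5.05 (adjusted p = 0.00816). Without the first, Cdx1 differed by -1.37 and Cdx2 by -1.94, compared with -0.62 and -0.53 when both were kept. The second EpiSC array and both epiblast arrays read these genes below the filter level, so these differences depend on the value to which low readings were raised. Dkk1, the LRP antagonist, was the single other target higher in EpiSCs, by 3.22, and Myc the single one lower, at -2.53, while of the components Tle1 was higher by 1.05.

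PGCs of embryonic day 9.5 were compared with the epiblast, the tissue from which they arise. Cdx2, Cdx1 and Notum were higher, 3 of 7 members against 6.11% of genes called higher, and none was lower, against 4.36%. Notum was higher by 1.43 ± 0.21 (adjusted p = 0.00226), 2.70-fold, and kept its call whichever array was left out. Cdx2 was higher by 2.83 ± 0.72 (adjusted p = 0.0326), at least 4.75-fold, and Cdx1 by 2.02 ± 0.49 (adjusted p = 0.0271), at least 1.83-fold. Both of these calls were lost without any one of the 4 arrays, with adjusted p-values of 0.113 to 0.154 for Cdx2 and 0.0935 to 0.148 for Cdx1. Axin2 differed by 0.87 ± 0.47 (adjusted p = 0.329), Sp5 by -0.48, Rnf43 by -0.07 and Lef1 by 0.17 ± 0.22. The PGC arrays also carried the embryonic globin gene Hbb-bh1, with a summed blood list of 598 and 2704 against 85.3 to 93.6 in the epiblast, and 4 of 8 fibroblast and 3 of 6 endothelial genes were higher. Of 9 hindgut genes, 7 exceeded the filter level on both PGC arrays and 0 lay below it on both, with sums of 3686 to 3699. In the epiblast 8 exceeded it and 1, Foxa1, lay below it on both arrays, with sums of 8424 to 9080. For visceral endoderm 7 of 8 genes exceeded it in both groups. Their sums were 489 to 587 in PGCs and 681 to 2581 in the epiblast. The part of such cells in the Cdx2, Cdx1 and Notum results was not tested. Among the other targets Sp8 was higher by 2.13, while Ccnd1, Fzd7 and Myc were lower, at -2.22, -1.30 and -2.91, and of the components Tcf7l1 fell by 3.93 and Tle1 rose by 1.26.

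PGCLCs were then compared with PGCs directly. Limma called 0 of 7 members, against 2.88% of genes, and 2, Cdx2 and Notum, had an unadjusted p under 0.05. Cdx2 was the most different, at -2.43 ± 0.72 (adjusted p = 0.135), reading 24.5 and 18.2 in PGCLCs against 107 and 123 in PGCs. Unamplified PGCLCs read 168 and 873, and PGCs were measured on amplified arrays only, so the direction holds for amplified arrays alone. Cdx2 was called with the higher floor, at -2.14 (adjusted p = 5.6e-05), where both PGCLC readings were raised to the floor. It was also called with a pseudocount of 16, at -1.81 (adjusted p = 0.0266), as the mean of both probe sets, at -2.12 (adjusted p = 0.0358), and with the EpiSC arrays left out (adjusted p = 0.00441). Notum differed by -0.80 ± 0.21 (adjusted p = 0.0904). Sp5 differed by -2.19 ± 1.31 (adjusted p = 0.646), Axin2 by -0.59, Rnf43 by -0.50, Lef1 by -0.26 and Cdx1 by 0.10. The test of whether the step into germ cells was of different size in culture and embryo called 0 of 7 as well, against 0.513% of genes, with 1 unadjusted p under 0.05, for Notum at -0.84 ± 0.30 (adjusted p = 0.41). Cdx2 differed by -0.50 in that test. With the higher floor it was called, at -2.14 (adjusted p = 0.000731), but that floor sets every EpiLC, epiblast and PGCLC reading to the same value. The call therefore repeats the PGCLC minus PGC difference and cannot compare the steps.

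Whether a difference depended on the set of arrays, PCR amplified or not, was asked in a joint fit of both sets. No array-name code occurs in both sets, so amplification cannot be told apart from other differences between the sets. For EpiLC day 2 minus ESC limma called 0 of 7 members, against 0.852% of 14554 genes, and none had an unadjusted p under 0.05. For EpiSC minus EpiLC day 2 it called 0, against 0.295%, with Axin2 at an unadjusted p under 0.05. That difference was smaller by 1.2 ± 0.52 with amplification (adjusted p = 0.453), and was called without the first amplified EpiSC array, at -1.74 (adjusted p = 0.0225). For PGCLC minus EpiLC day 2 it called 0, against 0.845%, with 2 at an unadjusted p under 0.05. The Cdx2 rise was smaller with amplification by 4.18 ± 1.01 (adjusted p = 0.0662) and the Axin2 rise by 1.64 ± 0.52 (adjusted p = 0.175). With the replicate number as a block, Cdx2 (adjusted p = 0.0335) and Axin2 (adjusted p = 0.00724) were called here, and Axin2 in the EpiSC comparison too (adjusted p = 0.0458). For Cdx2 the dependence was also called with its second probe set, at -4.95 (adjusted p = 0.0079), with the higher floor, at -3.88 (adjusted p = 0.00265), and without the first unamplified PGCLC array, at -5.37 (adjusted p = 0.0149).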

How the data were processed

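RNA was measured on 24 Affymetrix arrays in 12 groups of 2. The authors deposited 1 linear intensity per probe set and array for 45101 probe sets, with software and normalization not given in the sources used here. The labels call the arrays of a group biological replicates without naming separate cultures or litters, and p-values therefore reflect only the spread between these samples, which may be technical. The number of arrays limits the precision. Array medians were 41.1 to 49.2 (unamplified) and 36.2 to 40 (amplified), and no scaling was applied.

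The array annotation listed 1 symbol for 34958 probe sets, several for 932 and none for 9211. For each of 18194 genes the probe set of highest mean log2 intensity was kept. Intensities under the table's 10th percentile (4.2) were set to that value before log2. Tested genes exceeded the 40th percentile of their set on 2 or more of its 12 arrays, 14935 unamplified, 15609 amplified and 14554 in both sets, and all 7 measured members passed. In R 4.3.3, limma 3.58.1 fitted a mean for each group of a set, with variances moderated along an intensity trend (6 residual degrees of freedom), and the fit was tested on simulated data. P-values are two-sided, adjusted by Benjamini-Hochberg over all genes of a comparison. Named genes are the members, the genes called in the 2 other WNT lists, cell type markers beside a result, and the 3 genes most alike in pattern to each member. Members and lists were chosen with earlier results of these data known. Lists are described by counts and medians, with no set test.

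Alternatives were another floor (40th percentile), a pseudocount of 16, no filter or a filter at the 60th percentile, median centring, quantile normalization, no trend, the mean of a gene's probe sets, a fit of the compared groups alone, the replicate number or array-name code as a block, and each array left out. The second probe set of Axin2, Cdx2 and Lef1 and leaving out EpiSC arrays were added after seeing the data. Replicate numbers come from the labels: residuals of same-numbered arrays correlated above 0.1 in 15 of 15 group pairs on amplified arrays (median 0.371) and in 3 of 15 on unamplified arrays (median 0.0545). On unamplified arrays all second replicates share an array-name code. The first replicates of EpiSCs and PGCLCs carry a different code from those of ESCs and EpiLCs. Reported values come from the fit without the block, and the blocked value stands beside an amplified result where it changes a call. On amplified arrays the number coincides with the array-name code. No array column was left unused (0).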

Additional observations from a re-analysis of the deposited data

How the results depend on the processing

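Of 211 counts of members called under other settings (arrays left out one at a time apart), 186 stayed within 1.5 times the reported count. EpiLC day 2 minus day 1 went from 0 to 1 with median centring or quantile normalization, and day 3 minus day 2 from 0 to 1 with quantile normalization or the array-name code as a block. EpiSC minus EpiLC day 2 went from 3 to 1 unamplified (pseudocount) and from 1 to 0 amplified (higher floor, pseudocount, no filter, groups alone). Amplified PGCLC minus EpiLC day 2 went from 1 to 0 (higher floor) and to 2 (groups alone, replicate block, EpiSC arrays left out). EpiLC day 2 minus epiblast (EpiSC arrays left out), PGCLC minus PGC (higher floor, pseudocount, mean of probe sets, EpiSC arrays left out) and the germ cell step (higher floor) each went from 0 to 1. In the last of these the floor sets the EpiLC, epiblast and PGCLC readings of Cdx2 to the same value. Dependence on amplification went from 0 to 1 for EpiSC minus EpiLC day 2 (replicate block) and, for PGCLC minus EpiLC day 2, from 0 to 1 (higher floor, pseudocount, mean of probe sets, second probe set) and to 2 (replicate block). The block moved no other count by more than 1.5 times. In all these the cause was not tested. Leaving out 1 array gave 4 to 5 members for EpiLC day 1 or day 2 minus ESC unamplified, 0 to 1 for day 2 minus day 1 and day 3 minus day 2, 2 for EpiSC and 3 for PGCLC minus EpiLC day 2 unamplified, 2 to 4 for EpiLC day 2 minus ESC amplified, 0 to 2 for EpiSC and 0 to 1 for PGCLC minus EpiLC day 2 amplified, 2 to 3 for ESC minus epiblast, 0 to 2 for EpiSC minus epiblast, 1 for PGC minus epiblast, 0 for PGCLC minus PGC and EpiLC minus epiblast, and 0 to 1 for dependence on amplification of either EpiSC or PGCLC minus EpiLC day 2. Of 2003 gene results, 1905 kept a call and its direction or were called in neither fit, whatever their direction. A call was lost by 56 and gained by 37. Of results called in either fit 5 reversed, all for the second Axin2 probe set: 0.22 and 0.40 for EpiLC day 1 and day 2 minus ESC, -0.23 for EpiSC and -1.49 for PGCLC minus EpiLC day 2, and -0.094 for ESC minus epiblast. Every group mean of that probe set lay below the filter level. Counts over all genes that moved by over 1.5 times under settings that kept all replicates were 1201 to 770 (day 2 minus day 1) and 636 to 362 (day 3 minus day 2) with the pseudocount, 1947 to 464 (amplified EpiSC minus EpiLC day 2), 1823 to 459 (EpiSC minus epiblast) with groups alone, 150 to 11 with groups alone, 309 with the replicate block and 266 with EpiSC arrays left out (EpiLC day 2 minus epiblast), and 450 to 0, 773 and 690 in the same order (PGCLC minus PGC). Dependence on amplification moved from 124 to 258 with the higher floor and 342 with the block for EpiLC day 2 minus ESC, from 43 to 160 and 240 for EpiSC minus EpiLC day 2 (77 with the pseudocount, 70 with no filter, 95 as the mean of probe sets, 2 with groups alone), and from 123 to 270 and 385 for PGCLC minus EpiLC day 2 (14 with groups alone). The germ cell step moved from 80 to 124 and 257, and to 177 with EpiSC arrays left out. With 1 array left out, counts over all genes stayed within 1.5 times on unamplified arrays. On amplified arrays they ranged from 659 to 911 (EpiLC day 2 minus ESC, 1329 with all arrays), 1148 to 3956 (EpiSC minus EpiLC day 2, highest without the first EpiSC array), 1009 to 1331 (PGCLC minus EpiLC day 2, 1983), 1035 to 1083 (ESC minus epiblast, 1844), 23 to 69 (EpiLC day 2 minus epiblast), 845 to 3442 (EpiSC minus epiblast, highest without the first EpiSC array), 793 to 1104 (PGC minus epiblast, 1634) and 91 to 284 (PGCLC minus PGC). Dependence on amplification ranged from 34 to 169, 10 to 2557 (highest without the first amplified EpiSC array) and 40 to 280 in the order above, and the germ cell step from 12 to 91, so the shares of all genes printed beside the members move as well. Rnf43 readings and most Sp5, Cdx1 and Cdx2 readings lie near or below the filter level, where signal over background limits what a difference or its absence can show.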

Other observations

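Over the 12 group means, each centred within its set of arrays, Axin2, Notum and Cdx1 varied together. Pearson's r was 0.915 for Axin2 with Cdx1, 0.877 for Axin2 with Notum and 0.93 for Cdx1 with Notum, while Sp5 went with Rnf43 at 0.864 and with Axin2 at 0.608. Lef1 was unrelated to Axin2, at -0.0142, and opposite to Rnf43, at -0.789, and Cdx2 came closest to Lef1, at 0.553. These are descriptions over groups that share sets of arrays and, for 4 cell types, appear in both sets. Rnf43 lay near or below the filter level in every group, and most readings of Sp5, Cdx1 and Cdx2 lay below it. Values of r with these genes therefore rest largely on readings treated as bounds.

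Among 5410 genes searched, the genes most alike in pattern to Axin2 were Slc6a6, a taurine transporter, at r = 0.923, Ebp, a sterol isomerase, at 0.922, and Gna13, a G protein subunit, at 0.916. For Notum they were Tet2, an enzyme that oxidises methylcytosine, at 0.97, and Jam2 and Serpinb6c, both at 0.96. Sp5 was closest to Ctnnd2, encoding delta-catenin, at 0.959, then A2m and Ddah2, both at 0.953. Cdx1 was closest to Lap3 at 0.977, Dnali1 at 0.972 and Tnfaip8l2 at 0.958, and Cdx2 to Gm11346 at 0.978, Pitx1, a homeobox gene of the hindlimb, at 0.966, and Tedc1 at 0.95. The likeness was weaker for Rnf43, with Ctdsp2 at 0.92, Fbln1 at 0.902 and Irx2 at 0.9, and for Lef1, with Mycn at 0.877, Zfp566 at 0.859 and Fam169a at 0.851.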
